A study of Homo sapiens with 6 samples.

Results

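U1 small nuclear RNA (snRNA) and its genomic copies were examined in Nm-mut-seq data from chromatin-associated RNA (caRNA) of HepG2, an established human liver cancer cell line. The members are the 143 GENCODE release 44 genes of type snRNA whose names begin with RNU1- or RNVU1-, read on the gene's own strand in hg38. They comprise 4 genes named RNU1-1 to RNU1-4 (true genes), 27 RNVU1 genes (variants) and 112 genes whose names end in P (pseudogenes). At least 1 position was listed in 56 of the 143 genes, which were 1 true gene, 17 variants and 38 pseudogenes. The table of imbalanced dNTP libraries held 572 U1 positions in 47 genes among 176343 positions, and that of balanced dNTP libraries held 264 in 35 genes among 246881. Both tables shared 108 U1 positions in 17 genes, among 35761 shared positions.

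U1 snRNA is the RNA of the U1 small nuclear ribonucleoprotein, which recognises the 5′ splice site of introns by base pairing through the 5′ end of the RNA. It is bound by the Sm proteins and by the U1-specific proteins U1-70K, A and C. Its known 2′-O-methylated nucleotides (Nm) are the cap-adjacent A1 and U2 and the internal A70. The human genome carries many U1 variants and pseudogenes, so that a sequencing read can match several of them.

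Nm-mut-seq reads Nm as a change to T. In the imbalanced dNTP libraries (3 biological replicates), dATP was at 1 mM and the remaining dNTPs were at 2 µM during reverse transcription, so that Nm at G, A and C is read as T. In the balanced dNTP libraries (3 libraries, the input), each dNTP was at 1 mM, and the replicate number pairs the libraries because each pair was made from the same ligated RNA. The labels name no knockdown or drug, all 6 libraries came from the same line, and RNA under 200 nt was removed during purification. Full-length U1 is 164 nt, so the reads come from a class of RNA that the preparation depletes. Reads of 100 bp were mapped with up to 3 mismatches and up to 4 alignments per read, and only positions with T reads are listed. Where 2 members have the same sequence over a read, their reads cannot be told apart. The mutation ratio is the number of reads with T over the depth, and depth is the number of reads at the position.

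Depth summed over all listed positions was 17063930 to 22485865 in the imbalanced and 22974020 to 34367262 in the balanced dNTP libraries, with medians of 10 to 23 reads. Of 8 hepatocyte genes set as markers of HepG2, 6 had listed positions under imbalanced dNTP, with 6226 in APOB, 1122 in AFP and 806 in ALB. FGB and TTR had none there.

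The true gene RNU1-1 (chr1:16514122-16514285, minus strand, hg38) is shown first, with A70 in capitals, followed by 4 variants whose depth is described along the RNA and 3 of the pseudogenes with most listed positions. Capitals in those mark bases that do not match RNU1-1, inserted bases included.
RNU1-1: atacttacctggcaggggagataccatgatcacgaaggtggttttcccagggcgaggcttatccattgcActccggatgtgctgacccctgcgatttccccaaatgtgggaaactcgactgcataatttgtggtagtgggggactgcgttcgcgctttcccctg
RNVU1-7: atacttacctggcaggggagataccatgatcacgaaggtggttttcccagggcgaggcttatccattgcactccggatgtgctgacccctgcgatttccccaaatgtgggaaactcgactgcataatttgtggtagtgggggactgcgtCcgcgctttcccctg
RNVU1-28: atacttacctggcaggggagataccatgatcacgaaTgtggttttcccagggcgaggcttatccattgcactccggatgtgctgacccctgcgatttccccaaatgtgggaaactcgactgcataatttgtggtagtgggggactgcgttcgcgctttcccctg
RNVU1-31: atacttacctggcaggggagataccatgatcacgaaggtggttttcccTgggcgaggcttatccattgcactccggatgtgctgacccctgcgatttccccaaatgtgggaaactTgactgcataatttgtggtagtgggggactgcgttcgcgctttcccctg
RNVU1-19: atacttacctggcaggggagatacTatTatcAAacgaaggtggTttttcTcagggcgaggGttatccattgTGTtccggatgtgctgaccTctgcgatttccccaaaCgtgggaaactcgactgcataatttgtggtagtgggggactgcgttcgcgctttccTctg
RNU1-19P: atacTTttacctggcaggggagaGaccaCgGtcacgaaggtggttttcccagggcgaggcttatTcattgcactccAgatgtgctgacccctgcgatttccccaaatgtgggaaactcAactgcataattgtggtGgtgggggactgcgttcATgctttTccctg
RNU1-82P: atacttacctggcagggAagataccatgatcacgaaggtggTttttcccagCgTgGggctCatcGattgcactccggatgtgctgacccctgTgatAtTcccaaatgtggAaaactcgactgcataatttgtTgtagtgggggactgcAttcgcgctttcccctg
RNU1-11P: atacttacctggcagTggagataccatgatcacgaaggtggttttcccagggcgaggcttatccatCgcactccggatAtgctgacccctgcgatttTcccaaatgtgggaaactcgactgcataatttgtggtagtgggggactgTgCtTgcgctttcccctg
RNVU1-7 lies at chr1:148038753-148038916, RNVU1-28 at chr1:144560666-144560829, RNVU1-31 at chr1:145465617-145465780 and RNVU1-19 at chr1:120850819-120850985, all on the minus strand. RNU1-19P lies at chr10:86889569-86889733, RNU1-82P at chr7:141727984-141728148 and RNU1-11P at chr6:13214056-13214219, all on the plus strand.

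Substitutions are written with the RNU1-1 base, the position from the RNA's first nucleotide, and the member's base. RNVU1-7 differs from RNU1-1 only by T150C, RNVU1-28 only by G37T, and RNVU1-31 by A49T and C116T. RNVU1-19 is 93.9% identical to RNU1-1 over the aligned bases and has 7 differences to T, of which C161T lies nearest its 3′ end. RNVU1-15, which was 89.6% identical, carried C69T and C71T on both sides of position 70 and A70G at the position itself. RNVU1-19 also carries C69T, A70G and C71T.

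The gene copies of identical sequence were almost without listed positions. All 164 nt of RNU1-1 occur 8 times on the primary chromosomes of hg38, as RNU1-1 to RNU1-4, RNVU1-18, RNVU1-29, RNU1-27P and RNU1-28P. None of the 8 had a position in the imbalanced dNTP table. In the balanced table RNU1-1 had 1 position, position 4, with depths of 13, 8 and 9 in replicates 1, 2 and 3. RNU1-27P had 4, from position 159 to 164, with depths of 13 to 28. The aligner's limit was 4 alignments per read, fewer than these 8 copies, and its part in the absence was not tested. Under imbalanced dNTP, all listed U1 positions thus lay in members that differ from RNU1-1 at 1 base or more. Within 200 nt outside the U1 genes, 1 position was listed under imbalanced and 11 under balanced dNTP.

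Along the RNA, position 70 carried the highest mutation ratio. It was listed with A under imbalanced dNTP in 10 members, where 146 of 293, 150 of 266 and 134 of 227 reads held T. The ratios were 49.8%, 56.4% and 59.0% (mean 55.1% ± 4.74, SD, n = 3), with 95% Wilson intervals of 44.1 to 55.5%, 50.4 to 62.2% and 52.5 to 65.2% that cover counting error only. Under balanced dNTP, 8 members were listed there, with ratios of 4.68%, 0% and 4.00%. The imbalanced libraries were above the balanced ones in 3 of 3 replicates, by 52.2 percentage points on average (± 6.14, SD). With 3 pairs, an exact two-sided permutation test cannot go below p = 0.25, the value found here. These members were not the same in both tables.

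Among the members, RNU1-19P was highest at position 70 by its mean ratio. Its mutation ratios were 74.1%, 74.7% and 82.2% at depths of 108, 91 and 90. RNVU1-17 followed among the deeper members, with 50.0%, 59.1% and 66.7% at depths of 54, 66 and 48. Neither had the position listed under balanced dNTP. Without RNU1-19P, the other 9 members gave 35.7%, 46.9% and 43.8%.

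RNVU1-31 was measured at position 70 in both tables with at least 43 reads. Its ratios were 30.8%, 43.2% and 32.6% under imbalanced and 2.38%, 0% and 4.62% under balanced dNTP, so that the groups did not overlap. The log2 change of the odds of T was 4.43 (edgeR quasi-likelihood test, adjusted p = 1.95e-08 over all positions tested). The depths at the position were 52, 44 and 43 under imbalanced and 126, 74 and 65 under balanced dNTP.

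In other members position 70 was shallow. RNVU1-2 (47.1%, 33.3% and 80.0%), RNU1-82P (33.3%, 62.5% and 50.0%), RNVU1-6 (33.3%, 100% and 40.0%) and RNU1-88P (35.7%, 18.2% and 30.0%) had at most 17 reads in a library there and no listed input. RNVU1-28 had 20.0%, 50.0% and 12.5% at depths of 5, 6 and 8, against 5.56%, 0% and 0% under balanced dNTP at 54, 14 and 23. RNVU1-2A had 16.7%, 16.7% and 20.0% against 12.5%, 0% and 22.2%, and RNU1-34P had 15.8%, 0% and 0% against 0%, 0% and 10.0%. These last 2 overlapped between the conditions. RNVU1-14 carries G at the position, and its ratios of 6.67%, 16.7% and 13.3% overlapped those of 12.5%, 16.7% and 25.0% under balanced dNTP. Most of its imbalanced reads there, 11 of 15, 15 of 24 and 9 of 15, held C.

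**Figure D1:**
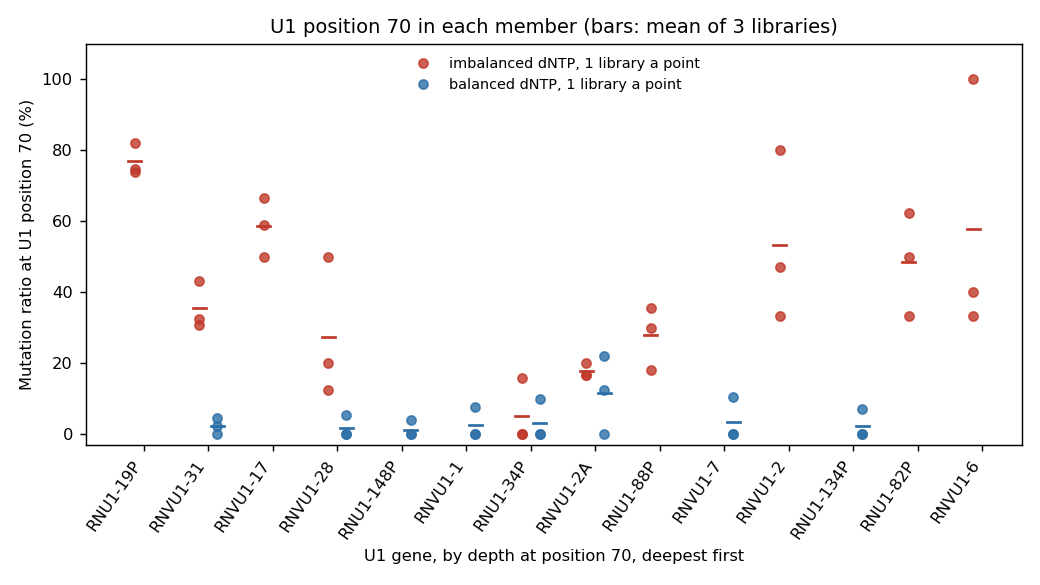
Mutation ratio (%) at U1 position 70 for each member that carries A there, with 1 point per library and a bar at the mean of 3 libraries, for imbalanced (red) and balanced (blue) dNTP. RNU1-19P lies at 74.1% to 82.2%, while no balanced library exceeds 22.2%.

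The cap-adjacent A1 was second. Over 4 members its ratios were 30.7%, 31.1% and 37.3% (33.0% ± 3.70, SD, n = 3), and under balanced dNTP 2 members gave 2.92%, 1.37% and 0%. The members differed widely. RNU1-88P had 69.0%, 45.8% and 45.9% at depths of 29, 24 and 37, and RNU1-44P had 31.4%, 33.3% and 58.8% at 70, 57 and 51. RNU1-55P was far lower, with 6.38%, 13.8% and 7.32% against 3.08%, 0% and 0% under balanced dNTP. That change passed the test (log2 change 2.63, edgeR adjusted p = 0.0412) and lost significance without any 1 of the replicates. Position 2 is U in U1, which this chemistry cannot read.

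Other positions were lower. Members that share the U1 base covered 112 U1 positions under imbalanced dNTP, of which 100 had a summed depth of at least 100 in each library. Their median ratio was 4.20%, and 14 lay above 10%. G68 had 17.6%, 13.7% and 14.7%, G130 had 14.5%, 16.0% and 12.7%, G106 had 14.2%, 14.6% and 13.6%, and C46 had 12.2%, 14.2% and 12.7%. The median over 58 positions of this depth under balanced dNTP was 0.516%. Of 53 positions that reached it in all 6 libraries, 48 were higher under imbalanced dNTP in 3 of 3 replicates and 1 was lower in 3 of 3. That 1 position was 89.

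**Figure D2:**
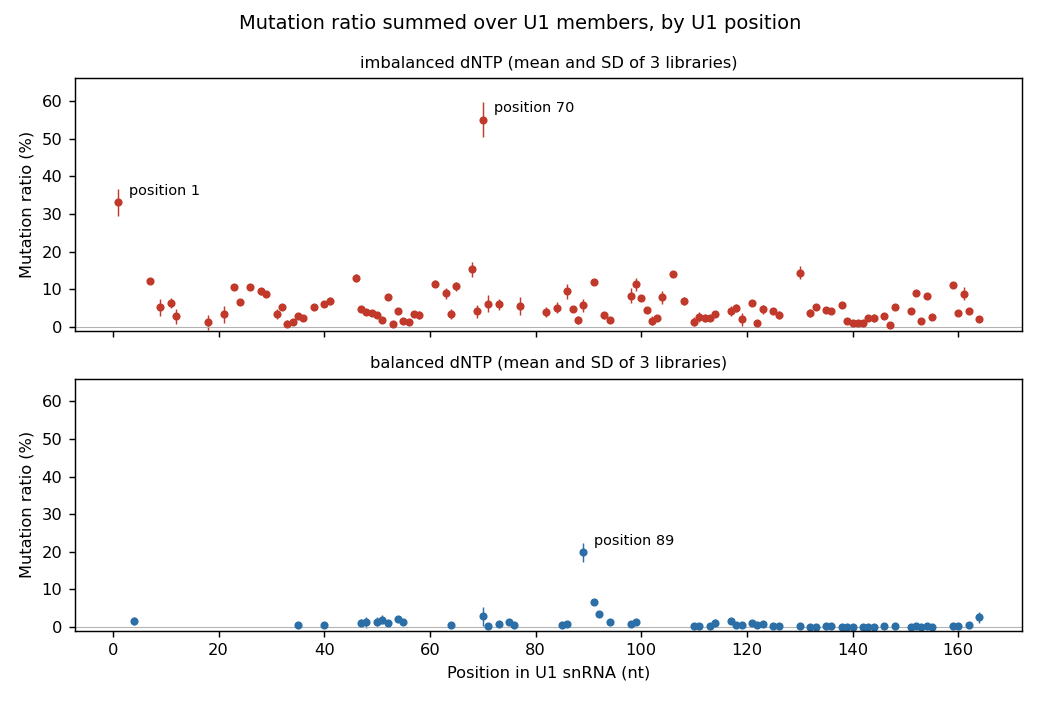
Mutation ratio (%) summed over members with the U1 base, against the position in U1 (nt), as mean and SD of 3 libraries at positions with a summed depth of at least 100 in each. Position 70 at 55.1% and position 1 at 33.0% stand above the rest under imbalanced dNTP, and position 89 at 19.8% under balanced dNTP.

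Single members also differed at the same coordinate. At G130, which 16 members covered, the mean ratio of a member ran from 0.863% to 28.9%, and at G106, covered by 10, from 7.18% to 28.5%. For the 11 pairs of members that shared at least 15 positions with 20 reads or more, Pearson's r of the ratios ran from -0.11 to 0.94 with a median of 0.50. These are descriptions across positions of the same libraries, and reads may be shared between members. The highest r, of RNU1-19P with RNVU1-31 over 19 positions, stood beside a Spearman's rho of 0.62, and these positions included position 70.

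Of 309 gene positions with 50 reads or more in every imbalanced dNTP library, RNU1-19P position 70 and RNU1-44P position 1 ranked first and second by mean ratio. RNU1-82P followed at position 148 with 23.6%, 24.2% and 27.9%, then RNVU1-19 at 91 with 20.8%, 19.6% and 26.0% and RNU1-88P at 7 with 21.8%, 18.5% and 25.5%. The next were RNVU1-2 at 130 (25.0%, 25.6% and 12.0%), RNVU1-3 at 54 (18.8%, 17.8% and 23.6%) and RNU1-82P at 133 (28.2%, 17.4% and 14.6%). RNU1-19P at 68 (21.4%, 19.8% and 18.2%) and RNU1-30P at 130 (16.9%, 19.2% and 22.8%) closed the list. Positions 148 of RNU1-82P and 54 of RNVU1-3 are bases where the member differs from U1.

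Which positions passed the site criteria was counted next. A site needed a depth of at least 10, at least 3 reads with T and over 3-fold the input's ratio in every replicate, with an unlisted input taken as 0. The study's further criterion on a spike-in background was not applied, so these are not the study's own site calls. Of 516 U1 positions deep enough, 209 (40.5%) passed in 30 of 47 genes, where 26.7% of all positions with this depth passed. The share was 41.5% in variants (112 of 270), 39.4% in pseudogenes (97 of 246) and 54.0% in other snRNA genes (623 of 1153). RNVU1-15 and RNVU1-19 held 21 sites each, RNVU1-31 held 19, RNVU1-7 held 18 and RNU1-11P held 15. Of the 209 sites, 181 had no listed input, and 28 passed when a listed input was required. At ratios of at least 0.1, 61 passed. The 209 and the 61 include RNU1-30P position 105 and RNU1-42P position 60, where RNU1-1 has T and its base cannot be told from a mutation. With the conditions exchanged, 1 U1 position passed.

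Reads with T were then tested against unmutated reads at the 83 U1 positions with 10 or more reads in all 6 libraries (edgeR, adjusted over 32284 positions). The odds of T were higher under imbalanced dNTP at 37 U1 positions (44.6%) and lower at 1 (1.20%), where 74.3% of all tested positions were higher and 0.0589% lower. In other snRNA genes 538 of 605 (88.9%) were higher. The difference between U1 and the rest was not tested. Leaving out replicate 1, 2 or 3 left 21, 24 or 22 higher U1 positions, and Fisher's exact test in each replicate left 19.

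The higher positions lay mainly in RNVU1-7. It held 22 of the 37 among its 25 tested positions, with a median log2 change of 4.13. At its position 130 the ratios were 12.4%, 10.3% and 9.86% against 0.206%, 0.155% and 0% (log2 change 6.27, adjusted p = 6.83e-31). At its 3′ end, position 159 had 10.5%, 8.72% and 9.56% against 0.107%, 0% and 0% (log2 change 7.21, adjusted p = 9.69e-27). Both positions were without overlap between the groups.

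In RNVU1-31, 9 of 24 tested positions were higher. Position 46 had 8.44%, 8.11% and 6.82% against 0%, 1.47% and 0%, and position 121 had 7.79%, 10.8% and 9.35% against 0%, 0% and 1.11%. In RNVU1-19, 2 of 13 were higher, of which position 130 had 17.1%, 20.5% and 15.5% against 0%, 0% and 4.55% (log2 change 3.45, adjusted p = 0.000908). RNU1-55P held 2, and RNU1-11P and RNVU1-28 held 1 each. At most 42 balanced reads lay behind the RNVU1-19 inputs, so small ratios were not detectable there.

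Summed over the 108 positions in both tables, the U1 mutation ratio was 5.01%, 5.17% and 4.76% under imbalanced dNTP and 0.670%, 0.583% and 0.589% under balanced dNTP. The difference was 4.37 percentage points, positive in 3 of 3 replicates (exact permutation of the 3 pairs, two-sided p = 0.25). By base it was 5.25 points at 44 G positions, 3.40 at 29 A positions and 3.73 at 35 C positions. Mismatches other than T, over the 106 of these positions with the U1 base, went the other way. They made up 0.316%, 0.327% and 0.328% of reads under imbalanced and 0.572%, 0.588% and 0.530% under balanced dNTP.

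Position 89 of RNVU1-31, a C in the genome, was the exception. Under balanced dNTP 52.2%, 52.6% and 50.0% of its reads held T, at depths of 136, 57 and 66. Under imbalanced dNTP the ratios were 14.9%, 11.5% and 0% at depths of 47, 26 and 29, and the groups did not overlap. The log2 change was -3.26 (edgeR adjusted p = 1.99e-06). RNU1-117P held 23.8%, 27.3% and 25.0% at the same coordinate under balanced dNTP, while RNU1-136P held 1.01%, 0.909% and 0%. With RNVU1-31 position 89 left out, the balanced U1 ratio was 0.440%, 0.432% and 0.372%.

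Most of the tested U1 positions were deeper under imbalanced dNTP. Of the same 83 positions, 49 (59.0%) were deeper under imbalanced dNTP and 12 (14.5%) shallower (edgeR on depth, with TMM scaling), where 22.7% of all tested positions were deeper and 27.3% shallower. In other snRNA genes 98 of 605 were deeper and 367 shallower (60.7%). Nearby positions of a gene can lie in the same reads, so the tested positions are not independent observations. With 50 reads or more required in all libraries, 24 of 48 U1 positions were deeper. The count of shallower positions fell from 12 to 2 without the replicate block, to 4 with DESeq2 and to 6 without replicate 2.

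The split followed the members. RNVU1-7, the only tested member with no difference to T from RNU1-1, had 9 shallower positions of 25 by edgeR and 0 deeper ones, with all 25 log2 changes below 0 (-1.61 to -0.07). DESeq2 called 4 of them shallower and 0 deeper, edgeR without the block 2 and 0, and 0 were deeper at an unadjusted p under 0.05. The 8 tested members with at least 1 difference to T had 49 deeper and 3 shallower of 58. Most of the deeper ones lay in RNVU1-31 (21), RNVU1-19 (11), RNU1-11P (7) and RNVU1-28 (7). Not every such member was deeper. RNU1-55P, with 6 differences to T, had 2 shallower of 2, and RNU1-22P, with 2 differences to T, had 0 deeper of 1. RNU1-89P, also without a difference to T, was too shallow to be tested, with 12, 7 and 6 reads against 10, 5 and 6 at its 1 shared position. Its log2 depth ratio there, scaled by all shared positions, was 1.29, 1.14 and 0.53 in the 3 replicates. Because 1 tested member stands for the first kind, the 2 kinds were not compared by a test, and the part of mapping in this split was not tested.

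RNVU1-7 was the deepest member under balanced dNTP. At position 146 it had 621, 475 and 404 reads under imbalanced and 1223, 796 and 598 under balanced dNTP, which after scaling was a log2 change of -0.08 (edgeR adjusted p = 0.276). Away from its T150C the change was larger, with 18, 13 and 17 reads against 115, 80 and 49 at position 98 (log2 change -1.61, adjusted p = 4.39e-05). Of its 50 nt windows, 13.0% were found in no other member.

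RNVU1-31 was deeper at 21 of 24 tested positions, near its differences to T and also away from them. Positions 23 and 24, which lie 26 and 25 nt from the nearest such difference, had log2 changes of 0.62 and 0.79. At position 50, next to A49T, it had 319, 265 and 231 reads against 195, 146 and 104 (log2 change 1.59, adjusted p = 3.95e-08). At position 117, next to C116T, it had 161, 113 and 114 against 212, 117 and 98 (log2 change 0.60, adjusted p = 0.000778). Between them, at position 89, it was shallower (log2 change -0.60, adjusted p = 0.00714), a call lost with DESeq2 (0.139) and without the replicate block (0.242). RNVU1-28 had 120, 112 and 86 reads at position 38, next to G37T, against 119, 58 and 66, a log2 change of 1.12, and all 7 of its tested positions were deeper.

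RNVU1-19 showed the strongest shift among tested members. At position 146 it had 1544, 1282 and 957 reads under imbalanced dNTP and 37, 13 and 17 under balanced dNTP, a log2 change of 6.55 (adjusted p = 7.39e-14). At position 106 it had 25, 16 and 19 against 39, 18 and 24, and at position 91 it had 120, 92 and 73 against 12, 5 and 5. Its C161T lies near its 3′ end, and from position 106 on it otherwise has the U1 sequence. In RNVU1-7, which keeps C at position 161, 9.90%, 7.51% and 6.18% of imbalanced reads held T at that position. The 2 values are given side by side, and a link between them was not tested.

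**Figure D3:**
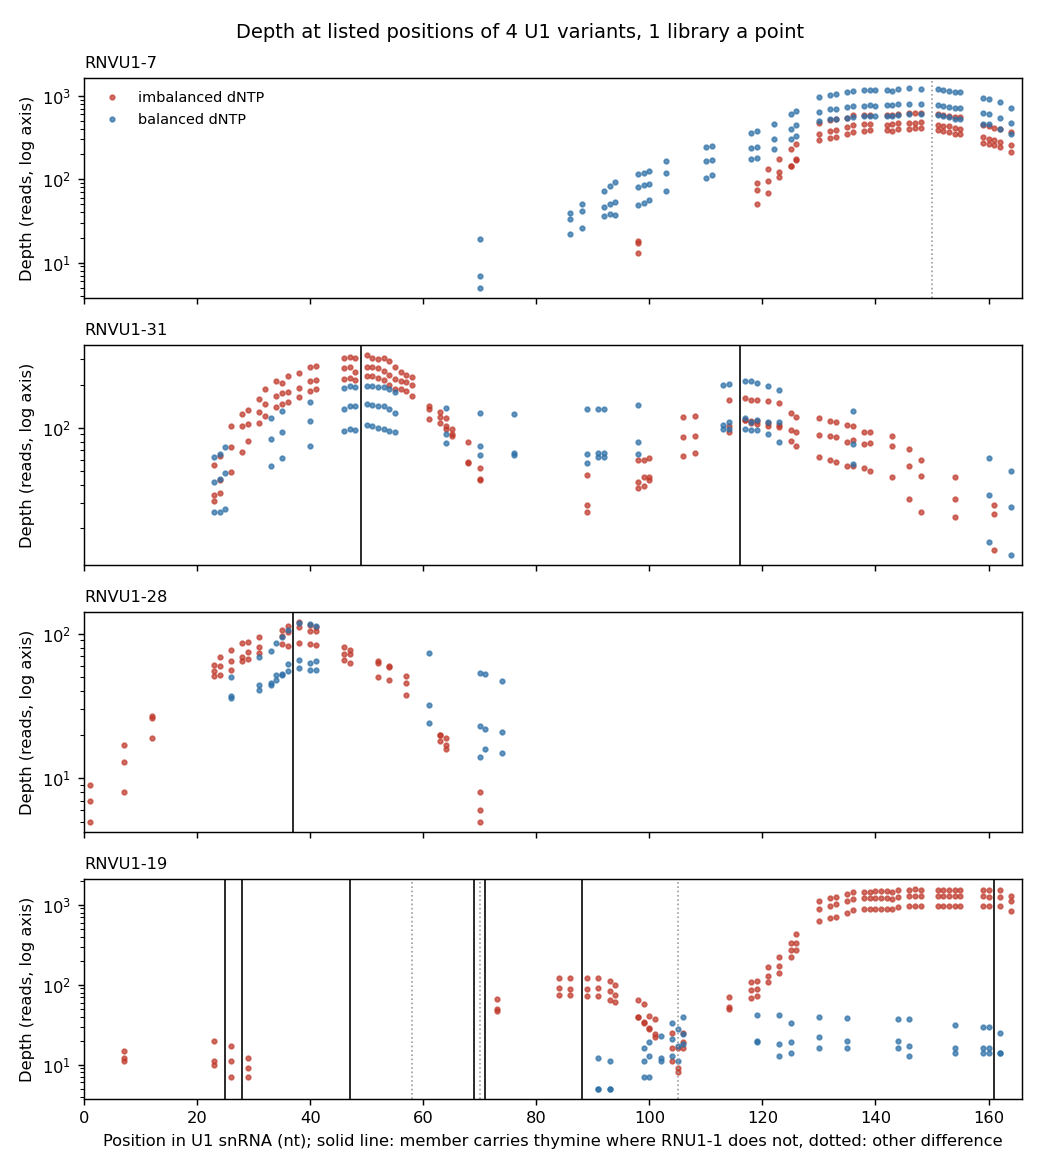
Depth (reads, log axis) at listed positions of RNVU1-7, RNVU1-31, RNVU1-28 and RNVU1-19 against the position in U1 (nt), with 1 point per library and lines at differences from RNU1-1, solid where the member has T. RNVU1-7 is deepest around its T150C in both conditions, and RNVU1-19 reaches 1555 reads in its 3′ part under imbalanced dNTP only.

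Over the positions in both tables, each member's depth was summed and scaled by all 35761 shared positions. RNU1-19P had a log2 ratio of 6.00 ± 0.29 (SD, n = 3) over 2 positions, RNVU1-19 of 5.66 ± 0.40 over 18, RNU1-11P of 4.02 ± 0.15 over 11 and RNVU1-2 of 3.98 ± 0.60 over 7. RNVU1-31 was at 1.21 ± 0.06 over 24 and RNVU1-28 at 1.18 ± 0.28 over 8. RNVU1-7 was at -0.11 ± 0.10 over 25 and RNU1-55P at -0.47 ± 0.10 over 2. A position enters here only if T reads were seen under balanced dNTP too.

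Many members could not enter that ratio. RNU1-82P had 32 positions under imbalanced dNTP, with a highest depth of 208, 149 and 150, and 1 under balanced dNTP with 11, 7 and 5 reads. RNVU1-15 had 30 and 4, at highest depths of 449, 395 and 325 against 25, 16 and 12. RNU1-30P (22 positions) and RNVU1-3 (17) had none under balanced dNTP. RNU1-136P went the other way, with 14 positions and up to 285, 174 and 118 reads under balanced dNTP, and 1 position with 18, 9 and 10 reads under imbalanced dNTP. RNVU1-1 had 22 positions under balanced dNTP and none under imbalanced dNTP. Differences to T from RNU1-1 numbered 4 in RNU1-82P, 4 in RNVU1-15, 7 in RNU1-30P, 12 in RNVU1-3, 4 in RNU1-136P and 1 in RNVU1-1.

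**Figure D4:**
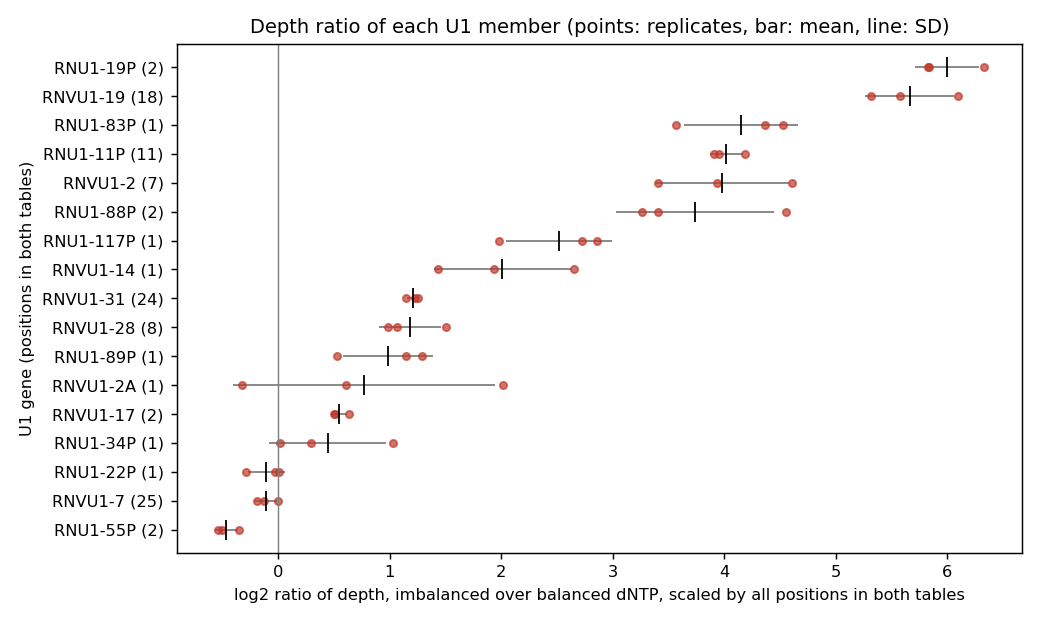
Log2 ratio of depth, imbalanced over balanced dNTP, for the 17 members with positions in both tables (number of positions in brackets), scaled by all shared positions, with 1 point per replicate, the mean as a bar and the SD as a line. RNU1-19P (6.00) and RNVU1-19 (5.66) lie at the top, and RNVU1-7 (-0.11) near 0.

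By class, the true genes gave no value, since no position of theirs was in both tables. Variants had log2 ratios of 1.07, 0.99 and 0.94 (1.00 ± 0.06, SD, n = 3) over 86 positions, and pseudogenes of 3.29, 3.39 and 3.24 (3.31 ± 0.08) over 22. Pseudogenes exceeded variants by 2.22, 2.40 and 2.29 in the 3 replicates (mean 2.31 ± 0.09, exact permutation of the 3 pairs, two-sided p = 0.25). The difference rested largely on RNVU1-7, which held 81.8%, 82.8% and 81.1% of the balanced depth of the variants at these positions. Without it, a setting chosen after seeing the data, variants were at 2.78 ± 0.12 and the difference was 0.53 ± 0.06, still positive in 3 of 3 replicates (same exact test, p = 0.25). The direction turned when members were classed by identity to RNU1-1. Those of at least 90% (104 positions) were at 1.13 and those below (4 positions) at -0.10, a difference of -1.22. The 4 positions lie in RNU1-117P, RNU1-22P and RNU1-55P, which are 89.7%, 89.3% and 89.2% identical, just under the cut. Paired with the nearest listed balanced position within 10 nt, variants were at 1.67 over 195 positions and pseudogenes at 3.46 over 93.

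Reads with the member's own base and with the base of RNU1-1 were counted at positions where these differ. Of the listed U1 positions, 30 under imbalanced dNTP (23 genes) and 8 under balanced dNTP (7 genes) were of this kind. At 4 of the 30 and 4 of the 8, RNU1-1 has T, so its base cannot be told from a mutation there. The member's own base made up 9.68%, 9.38% and 9.34% of reads at the former (9.46% ± 0.19, SD, n = 3) and 87.5%, 82.7% and 80.8% at the latter (83.6% ± 3.47). The base of RNU1-1 made up 59.8%, 62.5% and 61.1% against 5.98%, 10.2% and 8.65%. Only 2 of the positions were the same in both tables, and positions are listed only where T was read, so the shares describe different positions and were not tested.

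Single members are given as examples. In RNVU1-3, at the G54A difference, 104 of 128, 83 of 101 and 78 of 106 imbalanced reads carried the G of U1 and 0, 0 and 3 the A of the gene. In RNU1-82P, at G148A, 51 of 72, 49 of 66 and 42 of 61 carried G and 2, 1 and 2 carried A. In RNU1-30P, at T105G, 50 of 50, 35 of 36 and 34 of 35 held T, which is either the base of U1 or a mutation. In RNU1-117P, at G154A, none of 61 reads carried the A of the gene.

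At such positions few imbalanced reads carried the member's own base. At RNVU1-3 position 54 and RNU1-82P position 148, whose ratios are given above, most reads carried the U1 base. The base of RNU1-1 outnumbered the member's own at 23 of the 30 positions, with positions where it is T counted too. At 5 where U1 has no T, most reads held T. The member's own base made up most reads at 2 of the 30. These were RNVU1-15 at position 138, with 28 of 31 reads carrying its own A, and RNVU1-19 at position 105, with 22 of 33 carrying its own C.

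Under balanced dNTP the member's own base led at 7 of 8 positions. RNVU1-1 at position 94 had its own G in 39 of 40, 17 of 17 and 14 of 17 reads, and RNVU1-19 at position 105 its own C in 28 of 28, 10 of 11 and 17 of 17. RNU1-136P at T60C was the exception, where 9 of 9, 8 of 10 and 6 of 8 reads held T, either the base of U1 or a mutation. At RNVU1-14 position 70, measured in both tables, its own G was read in 6 of 8, 4 of 6 and 6 of 8 balanced and in 2 of 15, 1 of 24 and 4 of 15 imbalanced reads.

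**Figure D5:**
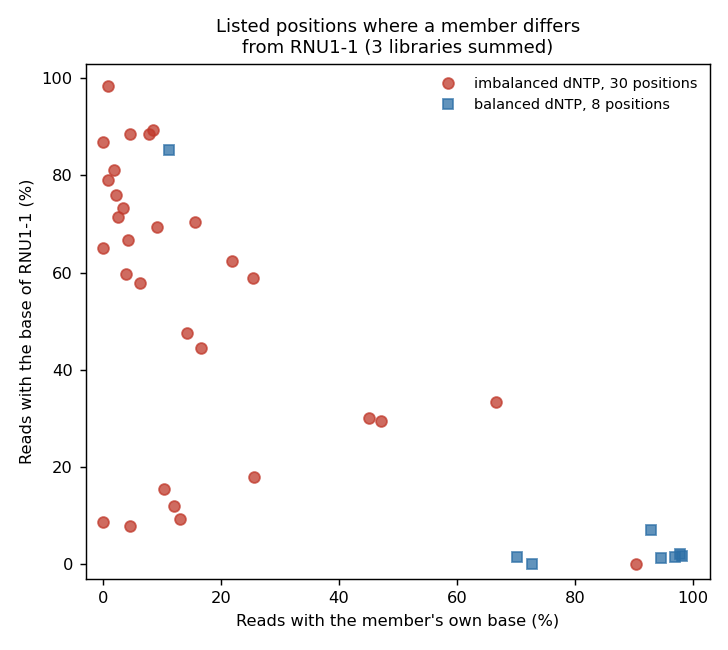
Share of reads (%) with the member's own base against the share with the base of RNU1-1, at listed positions where these differ, 3 libraries summed, for imbalanced (30 points) and balanced dNTP (8 squares). Imbalanced points lie mainly at the left, with a median own-base share of 8.10%, and 7 of 8 balanced squares at the right, with a median of 93.7%.

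Genes of the proteins of U1 were listed sparsely. Of 16 genes for the U1-specific proteins, the Sm proteins and U1-associated factors, 8 had positions under imbalanced dNTP, and SNRPA and SNRPC, which encode the A and C proteins of U1, had none in either table. Of 76 positions tested in the list, 66 had higher odds of T and 69 were deeper under imbalanced dNTP, both by edgeR at an adjusted p of 0.05, and the rest did not pass. Of all tested positions, 74.3% had higher odds of T and 22.7% were deeper. SNRPB, the gene of Sm protein B, held 41 of the 76, of which 40 had higher odds of T and 40 were deeper (median log2 depth change 0.50). PRPF39, a U1-associated splicing factor, held 28, of which 25 had higher odds of T and 28 were deeper. TIA1 held 5, of which 1 had higher odds of T and 1 was deeper. Positions were counted over the whole gene span, and RNA of other genes nested in an intron was not set apart. SNRNP70, the gene of U1-70K, had 17 imbalanced and 66 balanced positions and none deep enough for the test.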

How the data were processed

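Libraries of HepG2 caRNA were made in 3 biological replicates under imbalanced and balanced dNTP. Before deposit, Cutadapt removed adapters, BBMap removed duplicates by their molecular identifiers, and TopHat2 aligned the reads to hg38 with up to 3 mismatches and at most 4 alignments per read. JACUSA then gave the reads of each base. The authors deposited these as raw counts for every listed position and library, and each of the count columns was assigned to a library. The deposited JACUSA score was not used. The minimum depth in the files is 5.

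Members were taken from GENCODE release 44, and every listed base equalled hg38. Each gene was aligned locally to RNU1-1 with Biopython 1.88 (match 2, mismatch -3, gap open -5, gap extension -2), which gave the U1 position of the aligned bases. Uniqueness of 50 nt windows was counted among the member genes only, each read on its own strand. The members, lists and tests were chosen with earlier results of these data known. Every member with a listed position could be named, values per library were given for up to 10 members with most positions, for positions 1, 2 and 70 and for up to 10 positions with the highest mean ratio at a depth of at least 50, and other examples were chosen after their values were seen.

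The quasi-likelihood test of edgeR 4.0.16 (R 4.3.3), adjusted by Benjamini-Hochberg over 32284 positions with a threshold of 0.05, compared T against unmutated reads with an effect for each library and the replicate as a block, and depth with TMM factors and the same block. Both fits were tested on simulated data. Alternatives included DESeq2 1.42.0 and, within each replicate, Fisher's exact test. Site criteria followed the study except for its spike-in background, which is not analysed here. Other steps used Python 3.11.15 with pandas 2.3.3, numpy 2.4.6, scipy 1.17.1 and matplotlib 3.10.9.

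Same-numbered libraries come from the same ligated RNA, and deviations of log2 depth from the condition mean correlated within the pairs at 0.746, 0.590 and 0.871 over 24432 positions with at least 50 reads. Across numbers, replicates 1 and 2 correlated at 0.599 and 0.699. Counts were the same in 2 replicates at 2.90% of positions at most.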

Additional observations from a re-analysis of the deposited data

How the results depend on the processing

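The replicate number was a block in the edgeR fits. Without the replicate block (unpaired), U1 positions with higher odds of T numbered 41 in place of 37 and those with lower odds 2 in place of 1, and 38 in place of 49 positions were deeper and 2 in place of 12 shallower. At a minimum depth of 50, 24 of 48 positions were deeper, and 0 had lower odds of T by edgeR (Fisher's exact test and DESeq2, at a minimum depth of 10, each called 1), since RNVU1-31 position 89 has 26 reads in 1 library and is not tested there. Shallower positions numbered 4 with DESeq2 and 7 without TMM factors. Fisher's exact test in each replicate left 19 positions with higher odds.

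Leaving out 1 replicate gave 21 to 24 positions with higher odds of T, 1 with lower odds, 46 to 53 deeper and 6 to 13 shallower. The sites by the criteria numbered 234 to 260 without 1 replicate, 138 with at least 5 reads with T, 132 and 61 at ratios of at least 0.05 and 0.1, 28 with a listed input required, and 1 with the libraries exchanged. The class difference in depth was -1.22 with classes set by identity, in which 4 positions make up the lower class, against 2.31 with classes set by name, 1.79 with the nearest balanced position and 0.53 without RNVU1-7. RNU1-55P position 1 missed the threshold for odds of T without each of the 3 replicates, with adjusted p of 0.0832, 0.352 and 0.278. The difference at position 70 was 39.2 points without RNU1-19P, 37.3 as a mean over members and 50.1 to 55.7 without 1 replicate, and the U1 ratio difference was 3.26 points without RNVU1-7. Those settings on position 70 and those on RNVU1-7 were chosen after seeing the data. The cause of these changes was not tested unless given. Depth limits the tests to 83 of 108 shared positions, and balanced depth under 50 reads leaves small ratios undetectable in RNVU1-19, RNU1-11P and RNVU1-2.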
